A study of Mus musculus with 2 samples.

Results

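Of 3764 macrophages sequenced singly from the mouse sciatic nerve, 352 were producers of the chemokine transcripts *Ccl2*, *Ccl7* and *Ccl12*. Producers were chosen from the counts themselves. A cell had to hold at least 1000 UMIs (unique molecular identifiers, each standing for 1 captured RNA molecule) and 200 genes, at least 4 UMIs summed over the 3 chemokine genes, and fewer than 3 UMIs summed over *Il1b*, *Cxcl2*, *Ccl3* and *Ccl4*, genes of the acute inflammatory response. The comparison cells were the 2386 cells without a UMI of the 3 chemokines. In the YFP− library, 102 of 895 cells were producers (11.4%, exact binomial 95% interval 9.39 to 13.7) and 532 were comparison cells. In the YFP+ library, 250 of 2869 cells were producers (8.71%, 7.71 to 9.81) and 1854 were comparison cells.

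Both libraries came from the sciatic nerves of 19 male Flt3-Cre LSL-YFP fl/fl mice aged 10 to 12 weeks, which were pooled before the sort (the sources differ by 1 on the number of mice, and 19 is that of the methods). Cre driven by *Flt3* marks with YFP the cells that passed through a Flt3-expressing progenitor, so in the study YFP+ macrophages stand for those descended from hematopoietic stem cells (HSC) and YFP− macrophages for those of embryonic origin. CD64+ CD45int macrophages were sorted by YFP, and each sorted group became 1 library. The YFP− library holds 3653688 UMIs in all barcodes and 2304326 in its cells, and the YFP+ library 9365598 and 5863372. With 1 library per group and no replicates, no test of a difference was made, and every interval given here covers counting error only. The cells carried 5 barcodes that occur in both libraries, 1 of them was a producer in at least 1 library, and none was a producer in both.

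CC chemokines are small secreted proteins that attract leukocytes. *Ccl2*, *Ccl7* and *Ccl12* are ligands of *Ccr2*, the receptor by which monocytes leave the bone marrow and enter tissues, and macrophages are a known source of them. In nerve, *Ccl2* is best known for drawing monocytes to the site of an injury. No injury is described for the mice studied here.

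The 3 genes lie on the + strand of a cluster of chemokine genes on mouse chromosome 11 (GRCm38), with *Ccl2* at chr11:82035571-82037453, *Ccl7* at chr11:82045712-82047525 and *Ccl12* at chr11:82101845-82103400. *Ccl11* (chr11:82057823-82062955) lies between *Ccl7* and *Ccl12*, and *Ccl8* (chr11:82115185-82116799) follows *Ccl12*. *Ccl12* made up most of the chemokine UMIs of the producers, whereas *Ccl8*, the next gene along, was at 20.6 and 16.8 CPM (UMIs of a gene per 1000000 UMIs) in YFP− and YFP+ producers, against 30.2 and 18.1 CPM in comparison cells. Producers were chosen in part by *Ccl12*, so its level there follows from the rule. Over all cells, *Ccl12* was at 540.3 and 475 CPM and *Ccl8* at 26.9 and 15.2 CPM in the YFP− and YFP+ libraries. The promoters of these neighbours are shown because the genes lie side by side and differ in level over all cells. Each line gives the 250 bases before the gene's start, from RefSeq on GRCm38.p6, + strand, at chr11:82101595-82101844 for *Ccl12* and chr11:82114935-82115184 for *Ccl8*. Capitals mark the letters of a TATA box (TATAAA) and of a PU.1 motif (GAGGAA, or TTCCTC when read on the other strand).
Ccl12: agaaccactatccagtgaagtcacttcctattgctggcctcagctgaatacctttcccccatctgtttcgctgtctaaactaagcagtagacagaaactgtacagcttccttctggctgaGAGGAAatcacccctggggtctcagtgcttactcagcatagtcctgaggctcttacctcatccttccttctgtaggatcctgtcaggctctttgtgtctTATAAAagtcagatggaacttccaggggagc
Ccl8: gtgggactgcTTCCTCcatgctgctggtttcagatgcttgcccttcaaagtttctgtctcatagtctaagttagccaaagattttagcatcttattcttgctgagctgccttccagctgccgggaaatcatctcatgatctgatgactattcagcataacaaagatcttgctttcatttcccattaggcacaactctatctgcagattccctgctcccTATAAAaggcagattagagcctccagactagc
TATAAA lay at -31 to -26 of the *Ccl12* start and at -32 to -27 of the *Ccl8* start, and 12.4% of 32851 mouse promoters of the same length hold these letters on either strand. The PU.1 letters lay at -130 to -125 on the + strand of *Ccl12* and at -240 to -235 on the other strand of *Ccl8*, and 23.3% of the promoters hold them. Neither window held GGGA, any 4 bases and CC, a form of the NF-kB motif found in 17.6% of promoters, TGANTCA, the AP-1 motif found in 6.75%, or TTCNNNGAA, the STAT motif found in 7.02%, on either strand. The motifs do not overlap each other in these windows, and a match of letters is a description and not a site of binding.

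The number of chemokine UMIs per cell declined without a gap around the minimum of 4. Producers held a median of 7.5 (YFP−) and 7 (YFP+) chemokine UMIs, up to 40 and 41, and 37 and 71 of them held 10 or more. Just inside the minimum, 17 YFP− and 50 YFP+ producers held exactly 4. Just outside it, 20 and 72 cells held exactly 3 with fewer than 3 inflammatory UMIs. The producers carried 60.7% of all chemokine UMIs of the YFP− cells and 48.1% of those of the YFP+ cells. Another 18.9% and 29.5% lay in 29 and 101 cells with at least 4 chemokine UMIs that were excluded for 3 or more inflammatory UMIs, and the rest was spread over 232 and 664 cells with 1 to 3 chemokine UMIs.

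**Figure D1:**
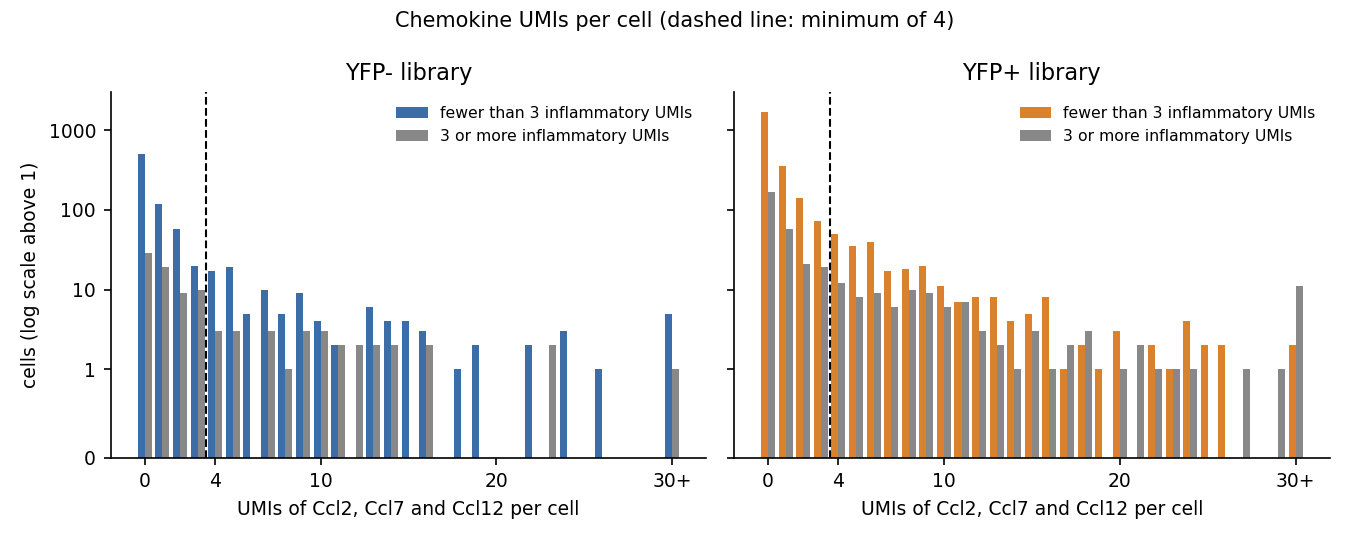
Number of cells (y axis, log scale above 1) by UMIs summed over Ccl2, Ccl7 and Ccl12 (x axis, 30 and more pooled), for the YFP− and YFP+ libraries, with coloured bars for cells with fewer than 3 inflammatory UMIs and grey bars for the others. Coloured bars from 4 UMIs on, right of the dashed line, are the 102 and 250 producers, and they continue the decline of the cells with fewer chemokine UMIs.

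A minimum of 4 UMIs favours cells with more RNA. Producers had a median of 2775.5 (YFP−) and 2062 (YFP+) UMIs, against 2250 and 1811.5 in comparison cells, and a median of 1211 and 1000 genes against 1037 and 888. Their median share of mitochondrial UMIs was 0.897% and 1.01%, against 0.955% and 0.917%. When each cell was thinned to 1000 UMIs, 47 YFP− cells (5.25%, 3.88 to 6.92) and 147 YFP+ cells (5.12%, 4.35 to 5.99) passed the same minimum. At this equal depth, the intervals of the shares in the libraries overlap.

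*Ccl12* was the most abundant of the 3 transcripts in producers. It was at 2949 CPM (2755 to 3153) in YFP− producers and 2910.2 CPM (2767 to 3058) in YFP+ producers, in 98 of 102 and 225 of 250 cells. *Ccl2* was at 399 CPM (329.8 to 479) and 678 CPM (609.7 to 751), in 47 and 119 cells. *Ccl7* was at 313 CPM (252 to 384) and 455 CPM (400.1 to 516), in 39 and 92 cells. The counts are of 3′ ends and are not divided by gene length. *Ccl12* took 80.5% of the chemokine UMIs of YFP− producers and 72.0% of those of YFP+ producers, and *Ccl2* took 10.9% and 16.8%. These levels follow in part from the rule, which asks for 4 UMIs of these genes in each producer. Over all cells, *Ccl12* was at 540.3 CPM (510.7 to 571) in the YFP− library and 475 CPM (458 to 493) in the YFP+ library, *Ccl2* was at 133 (119 to 149) and 193 CPM (182 to 205), and *Ccl7* at 87.2 (75.6 to 100.2) and 99.3 CPM (91.4 to 108).

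The transcripts were found in producers alone and together. The minimum of 4 UMIs summed over the 3 genes favours cells that hold several of them, so the shares describe the cells chosen and not how the genes go together. *Ccl12* alone was seen in 38 YFP− producers (37.3%) and 100 YFP+ producers (40.0%). All 3 transcripts were seen in 21 (20.6%) and 47 (18.8%), with a median of 3157 and 2333 UMIs per cell against 2469.5 and 2012.5 in the cells with *Ccl12* alone. *Ccl12* with *Ccl2* was seen in 22 (21.6%) and 47 (18.8%), and *Ccl12* with *Ccl7* in 17 (16.7%) and 31 (12.4%). Producers without *Ccl12* were few, with 3 (2.94%) and 11 (4.40%) holding *Ccl2* alone and 1 (0.980%) and 14 (5.60%) holding *Ccl2* with *Ccl7*. No producer held *Ccl7* alone, for which a cell would have needed 4 UMIs of the least abundant of the 3 genes.

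**Figure D2:**
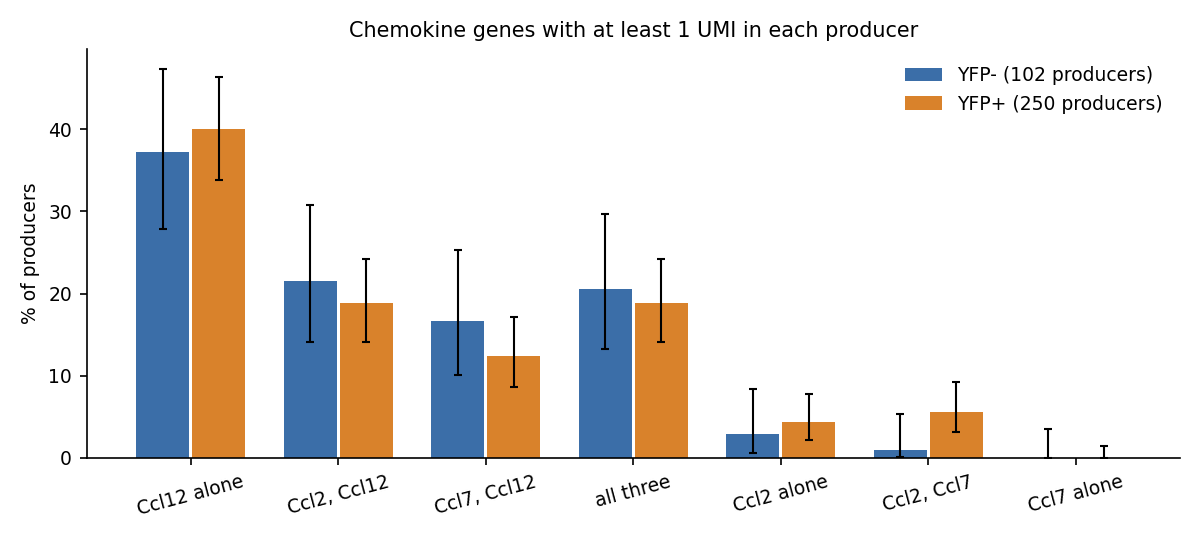
Percentage of producers (y axis) by the chemokine transcripts of which they held at least 1 UMI (x axis), for 102 YFP− and 250 YFP+ producers, with exact binomial 95% intervals. Ccl12 alone was the most frequent combination with 37.3% and 40.0%, and the bar of Ccl7 alone is at 0.

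Shared detection was also counted over all cells after thinning to 1000 UMIs. A UMI of *Ccl7* was seen in 14 of 62 YFP− cells with *Ccl2* (22.6%) and in 3.96% of those without it, and in 56 of 280 YFP+ cells with *Ccl2* (20%) and in 3.24% of those without it. *Ccl2* was seen in 15.8% and 21.1% of the cells with *Ccl12*, against 4.74% and 6.93% of those without it. *Ccl7* was seen in 13.6% and 13.9% of the cells with *Ccl12*, against 3.20% and 2.61%. The genes are related in sequence, and the longest run of bases shared by their transcripts is 23 for *Ccl2* and *Ccl7*, 17 for *Ccl2* and *Ccl12* and 11 for *Ccl7* and *Ccl12*. Barcodes with 10 to 100 UMIs, which hold free RNA, carried *Ccl12* at 651 and 616 CPM, *Ccl2* at 192 and 244 CPM and *Ccl7* at 173 and 194 CPM. All 3 were more abundant in producers than in free RNA, a difference that the minimum of 4 UMIs itself sets in part. Taken over all cells, all 3 were less abundant than in free RNA in both libraries. There *Ccl12* was at 540.3 and 475 CPM, *Ccl2* at 133 and 193 CPM and *Ccl7* at 87.2 and 99.3 CPM. How far free RNA adds to cells with few chemokine UMIs and to the shares above was not tested.

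The producers carried the transcripts of macrophages at the level of the comparison cells. All 11 macrophage genes examined passed the level filter, a mean of producers and comparison cells of at least 50 CPM in each library, and their median log2 ratio of producers over comparison cells was 0.06 in YFP− and -0.03 in YFP+ cells, beside 0.04 and 0.05 over the 2395 genes that passed the filter. *Csf1r*, the receptor on which macrophages depend, was at 1046 and 911 CPM in producers against 951 and 846 CPM in comparison cells. *C1qa*, a subunit of complement C1q, was at 6493 and 6158 CPM in producers against 6136 and 6271 CPM in comparison cells. *Adgre1*, which encodes F4/80, was at 282 and 222 CPM in producers against 242 and 238 CPM in comparison cells. Of all genes tested 0.71% were 1.5-fold higher and 0.668% 1.5-fold lower in both libraries, and none of the 11 genes was among them, as is likely for any list of this size. By the level of these markers the cells chosen by the chemokine rule were macrophages.

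Markers of other cell types were low in producers. Fibroblast markers summed to 41.3 and 61.6 CPM in producers against 70.6 and 169 CPM in comparison cells, with *Gsn* the most abundant, and 6 and 3 of the 8 genes were at 0. Mural cell markers summed to 6.88 and 9.33 CPM against 6.35 and 169 CPM, with 6 and 5 of 7 at 0. Schwann cell markers summed to 317 and 271 CPM against 345 and 493 CPM, led by *Pmp22*, with *Sox10* at 0 in both groups of producers, while free RNA held 2737 and 4463 CPM. Endothelial markers were slightly higher in producers, at 148 and 103 CPM against 106 and 73.6 CPM, but *Egfl7* made up most of this and *Cdh5* was at 0 and 3.73 CPM. Of 9 markers of T, NK and B cells only *Cd79b* was seen in producers, at 72.3 and 50.4 against 58.7 and 54.5 CPM in producers and comparison cells. Neutrophil markers were at 0 and 3.73 CPM in producers, and mast cell markers were at 0. Dendritic cell markers, mostly *Siglech*, summed to 131 and 106 CPM against 140 and 128 CPM.

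Apart from the genes of the rule, few transcripts separated producers from comparison cells. Of 2395 genes, 2 were at least 2-fold higher in producers in both libraries (0.0835%) and 5 were at least 2-fold lower (0.209%). The genes higher in producers were *Ccnd1* and *Il21r*. The genes lower were *Lgals3*, *S100a6*, *Cd9*, *Retnla* and *Capg*. Within a single library, 13 genes (0.543%) were 2-fold higher in YFP− and 6 (0.251%) in YFP+ producers, and 21 (0.877%) and 9 (0.376%) were 2-fold lower. Any difference upward in both libraries, however small, was found for 36.3% of genes and any difference downward for 24.7%. With comparison cells matched to the producers in depth, both higher genes and 4 of the 5 lower genes (*Capg*, *Cd9*, *Lgals3* and *S100a6*) were still past 2-fold. Without the cells that held 2 or more UMIs over 16 fibroblast, mural and myelin markers (3 and 10 producers, 27 and 126 comparison cells, a step added after seeing the data), *Ccnd1* and 3 of the lower genes (*Lgals3*, *Retnla* and *S100a6*) were, and the log2 ratio of *Il21r* in YFP+ cells was 0.98. *S100a6* was the only lower gene past 2-fold in both libraries under every alternative tried.

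*Ccnd1*, at chr7:144929931-144939925 on the - strand, encodes cyclin D1, which drives cells through G1. It was at 213 CPM (164 to 273) in YFP− producers and 66.7 CPM (53.2 to 82.5) in comparison cells, and at 198 CPM (162 to 239) in YFP+ producers and 79.5 CPM (70.5 to 89.2) in comparison cells. The log2 ratio was 1.66 (95% interval 1.17 to 2.15) in YFP− cells and 1.31 (0.97 to 1.63) in YFP+ cells. The intervals of producers and comparison cells do not overlap in either library. A UMI was seen in 44 of 102 and 76 of 250 producers, and no producer held more than 4 of the 62 and 106 UMIs. After thinning to 1000 UMIs, the share of cells with a *Ccnd1* UMI was 21.6% of producers and 6.39% of comparison cells in the YFP− library and 18% and 7.17% in the YFP+ library.

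*Il21r*, at chr7:125603429-125633570 on the + strand, encodes the receptor of interleukin 21. It was at 92.9 and 74.7 CPM in producers against 25.4 and 35.6 CPM in comparison cells, from 27 and 40 UMIs in 21 and 38 producers. The log2 ratio was 1.83 (95% interval 1.05 to 2.59) in YFP− cells and 1.05 (0.51 to 1.56) in YFP+ cells. Its share of cells with a UMI at equal depth was 12.7% of producers and 1.88% of comparison cells in the YFP− library and 9.20% and 3.94% in the YFP+ library. In comparison cells *Il21r* lay under 50 CPM, so it passed the level filter through its level in producers. In YFP+ cells its log2 ratio was 0.93 with every cell weighted equally, 0.87 without the 5% of cells with most UMIs and 0.66 with no limit on inflammatory UMIs.

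Of the genes lower in producers, *S100a6*, a small calcium-binding protein of the S100 family, was at 55.1 and 159 CPM in producers against 213 and 457 CPM in comparison cells. Its log2 ratio was -1.93 (95% interval -2.74 to -1.21) in YFP− cells and -1.52 (-1.85 to -1.21) in YFP+ cells. At equal depth, a UMI was held by 2.94% of producers and 10.7% of comparison cells in the YFP− library and by 10.4% and 24.9% in the YFP+ library. *Lgals3*, which encodes galectin-3 (chr14:47367751-47386160, + strand), was at 13.8 and 18.7 CPM in producers against 96.8 and 115 CPM in comparison cells, from only 4 and 10 UMIs in producers. Its log2 ratio was -2.73 (95% interval -4.39 to -1.40) in YFP− cells and -2.56 (-3.55 to -1.70) in YFP+ cells, and it passed the level filter through the comparison cells, where 1 cell held 23 of 122 UMIs and another 23 of 413. Its share of cells with a UMI at equal depth was 1.96% of producers and 4.51% of comparison cells in the YFP− library and 2% and 7.39% in the YFP+ library.

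*Cd9*, a tetraspanin of the cell surface, was at 48.2 and 89.6 CPM in producers against 135 and 208 CPM in comparison cells, with a log2 ratio of -1.47 and -1.20. At equal depth a *Cd9* UMI was held by 3.92% of YFP− producers and 8.65% of YFP− comparison cells. In YFP+ cells the shares were 9.6% and 12.1%, and the intervals overlap in both libraries. Among comparison cells, 1 YFP− cell held 24 of 170 *Cd9* UMIs and 1 YFP+ cell held 39 of 747. *Capg*, an actin-capping protein of macrophages, was at 37.9 and 61.6 CPM in producers against 77.8 and 133 CPM in comparison cells, with a log2 ratio of -1.02 and -1.09. At equal depth a *Capg* UMI was held by 4.90% of YFP− producers and 6.77% of YFP− comparison cells. In YFP+ cells the shares were 5.6% and 10.3%, and the intervals overlap in both libraries. *Capg* was the least stable of the lower genes and was no longer among them under 9 of the 19 alternatives. The alternatives include a limit of 1.5-fold, at which no 2-fold gene can be lost. *Retnla*, a secreted protein of alternatively activated macrophages, was at 344 and 299 CPM in producers against 788 and 1180.1 CPM in comparison cells, and its UMIs were unevenly spread. A single YFP− producer held 69 of the 100 *Retnla* UMIs, and the level without it was 108 CPM, while in the YFP+ library 1 producer held 43 of 160 and the level without it was 219 CPM. At equal depth a *Retnla* UMI was held by 15.7% of producers and 10.2% of comparison cells in the YFP− library and by 7.60% and 17.2% in the YFP+ library, so in the YFP− library more producers than comparison cells held it although its level was lower.

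At a lower limit of 1.5-fold, which was chosen after the 2-fold results were seen, 17 genes were higher in producers in both libraries (0.71%) and 16 were lower (0.668%), the 2-fold genes included. Of the higher genes, *Atp6v0a1*, *Gmip*, *Il21r*, *Maml2*, *Prkacb* and *Vasp* lay under 50 CPM in the comparison cells of both libraries and *Egfl7* in those of 1, so these 7 passed the level filter through their level in producers. Of the lower genes, 8 (*Capg*, *Cd9*, *Hist1h1c*, *Lgals3*, *Mbp*, *Mt2*, *Rgs2* and *Tgfbr1*) lay under 50 CPM in the producers of at least 1 library and passed it through the comparison cells. Such genes had to differ to be counted, so both counts are a description only. The higher genes had varied roles. *Marcksl1*, a MARCKS-related regulator of actin, was at 519.6 and 416 CPM in producers against 230.1 and 235 CPM in comparison cells. *Vmp1*, a membrane protein of autophagy, was at 141 and 114 against 58.7 and 67.0 CPM in producers and comparison cells. *Atp6v0a1*, a subunit of the proton pump of lysosomes, was at 79.1 and 65.3 against 39.7 and 35.0 CPM. *Snx2* and *Sh3gl1*, of endosomal sorting and endocytosis, and *Vasp* and *Gmip*, of actin regulation, were also on this list.

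*Cfp*, which encodes properdin, a positive regulator of the alternative complement pathway, was at 248 and 190.4 against 126 and 113 CPM. *Il1rl1*, the receptor of interleukin 33, was at 117 and 118 against 77.0 and 74.5 CPM. *Hk2*, hexokinase 2, was at 120.4 and 131 against 76.2 and 85.9 CPM. *Egfl7*, a secreted protein best known from endothelium, was at 138 and 84.0 against 66.7 and 46.4 CPM although the endothelial genes *Cdh5* and *Pecam1* were at 0 and 3.73 CPM and at 3.44 and 1.87 CPM in producers. *Prkacb*, *Maml2*, *Hnrnpab* and *Stk17b* made up the remainder. *Il1rl1* was below 0 in YFP− cells when members were chosen after thinning, and *Maml2* was below 0 in YFP+ cells with at least 6 chemokine UMIs. Log2 ratios of these 15 genes ran from 0.59 to 1.25.

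Among the genes lower by 1.5-fold was *Ccr2*, the receptor of the chemokines themselves. It was at 61.9 and 175 CPM in producers against 177 and 323 CPM in comparison cells, with a log2 ratio of -1.5 (95% interval -2.27 to -0.81) in YFP− cells and -0.88 (-1.19 to -0.57) in YFP+ cells. *Klf2*, a transcription factor of quiescence, was at 151 and 237 against 374 and 395 CPM in producers and comparison cells. *Mpeg1*, the pore-forming perforin-2 of macrophages, was at 86.0 and 78.4 against 169.8 and 170.3 CPM. *Vim*, the intermediate filament vimentin, was at 158 and 151 against 260.3 and 348 CPM. *Mt2*, a metallothionein, was at 48.2 and 63.5 against 132 and 106 CPM. Its UMIs were unevenly spread, and single comparison cells held 30 of 166 in the YFP− and 66 of 381 in the YFP+ library. At equal depth an *Mt2* UMI was held by 6.86% of YFP− producers and 8.08% of YFP− comparison cells. In YFP+ cells the shares were 5.6% and 6.15%. The remaining genes were *Rgs2*, *Tgfbr1*, *Mbp*, *Hist1h1c*, *Nfam1* and *Hspa1a*. The direction of *Hspa1a* rests on the limit on inflammatory UMIs, since its log2 ratio was 0.44 and 0.66 without that limit.

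**Figure D3:**
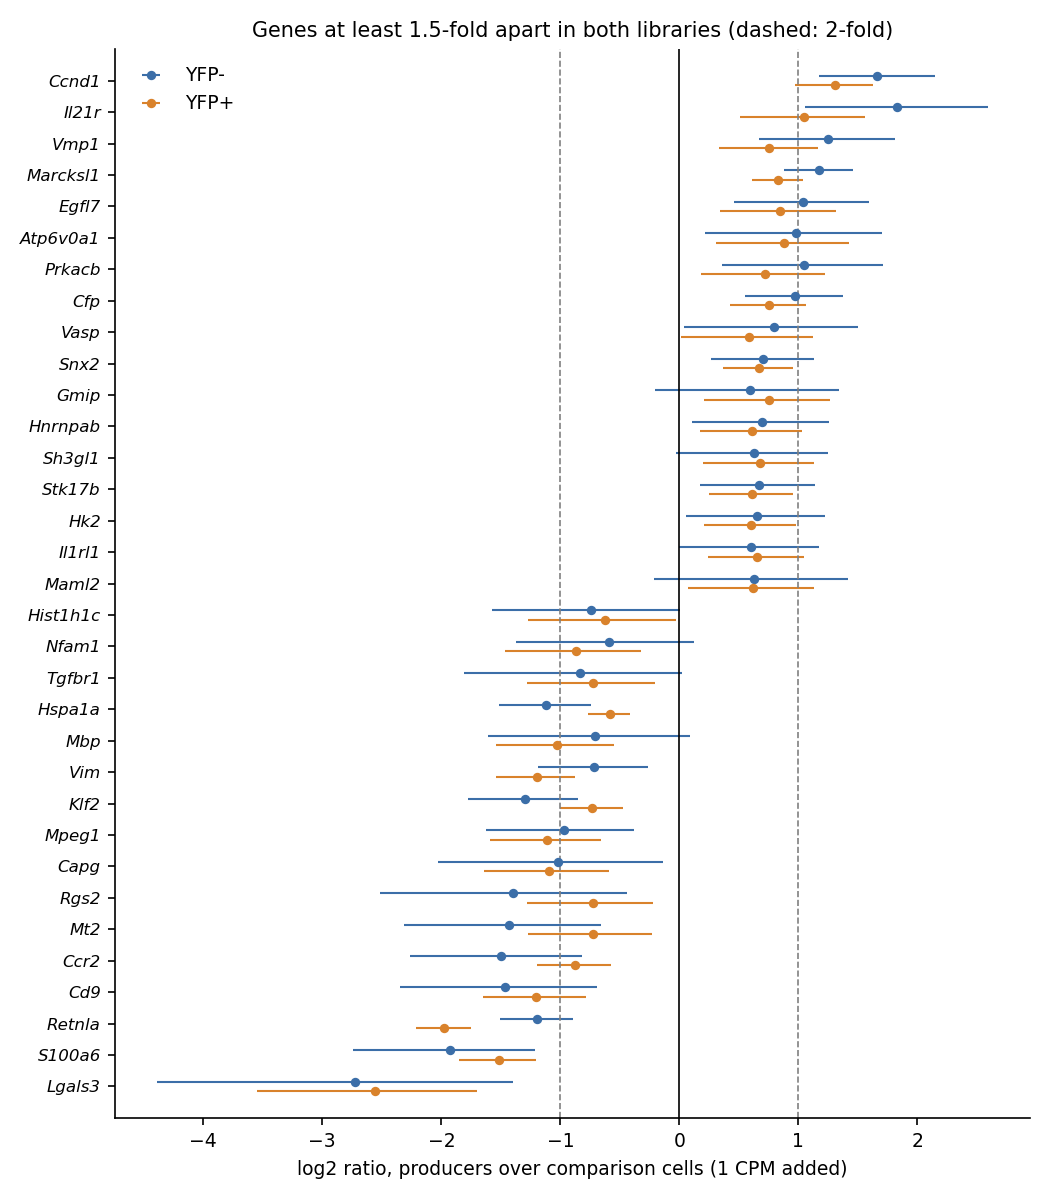
Log2 ratio of producers over comparison cells (x axis, 1 CPM added) for the genes at least 1.5-fold apart in the same direction in both libraries (y axis), with 95% counting intervals. Of the 17 genes to the right, Ccnd1 and Il21r lie past the dashed 2-fold line in both libraries, and of the 16 to the left, Lgals3, S100a6, Cd9, Retnla and Capg do.

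To follow these genes along the amount of chemokine RNA without the effect of depth, cells with fewer than 3 inflammatory UMIs were classed by their chemokine UMIs after thinning to 1000 UMIs, as 0, 1, 2 to 3, and 4 or more. The classes held 610, 94, 51 and 44 YFP− cells and 1887, 316, 166 and 135 YFP+ cells, and their median UMI totals ran from 2390.5 to 2538 and from 1744 to 1861.5. *Ccnd1* was at 85.5, 96.4, 113 and 237 CPM along the YFP− classes and at 80.0, 124, 152 and 221 CPM along the YFP+ classes, higher in each class than in the one before, although intervals of neighbouring classes overlap in part. *Marcksl1* was likewise at 251, 325, 484 and 657 CPM and 215, 301, 385 and 414 CPM. For *Il21r* the order was less regular in YFP− cells, with 29.2, 28.1, 83.2 and 82.1 CPM, than in YFP+ cells, with 33.1, 43.9, 50.7 and 86.8 CPM.

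*Pf4*, a CXC chemokine that was abundant in all cells, followed the same order, with 4544, 5472, 5643 and 6612 CPM along the YFP− classes and 3774, 4600.3, 5399 and 6543 CPM along the YFP+ classes. *S100a6* was highest in the cells without chemokine UMIs, at 186, 64.2, 22.7 and 54.7 CPM and 452, 265, 188 and 134 CPM. *Ccr2* was at 152, 52.2, 37.8 and 36.5 CPM and 323, 246, 221 and 154 CPM. For *Lgals3*, the level in cells with no chemokine UMI stood above all other classes, with 80.2, 32.1, 15.1 and 18.2 CPM and 109, 37.7, 20.9 and 23.7 CPM. The early response gene *Fos* followed no such order in YFP− cells, with 1326, 1293, 1566 and 1186 CPM, but was higher in each class than in the one before in YFP+ cells, with 1392, 1472, 1576 and 1625 CPM. *Jun* likewise was irregular in YFP− cells, with 858, 1112, 968 and 1131 CPM, and higher from class to class in YFP+ cells, with 868, 1098, 1149 and 1522 CPM. The classes differ in the measure that also chose the producers, so the order is a description of the same cells and not a second experiment.

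**Figure D4:**
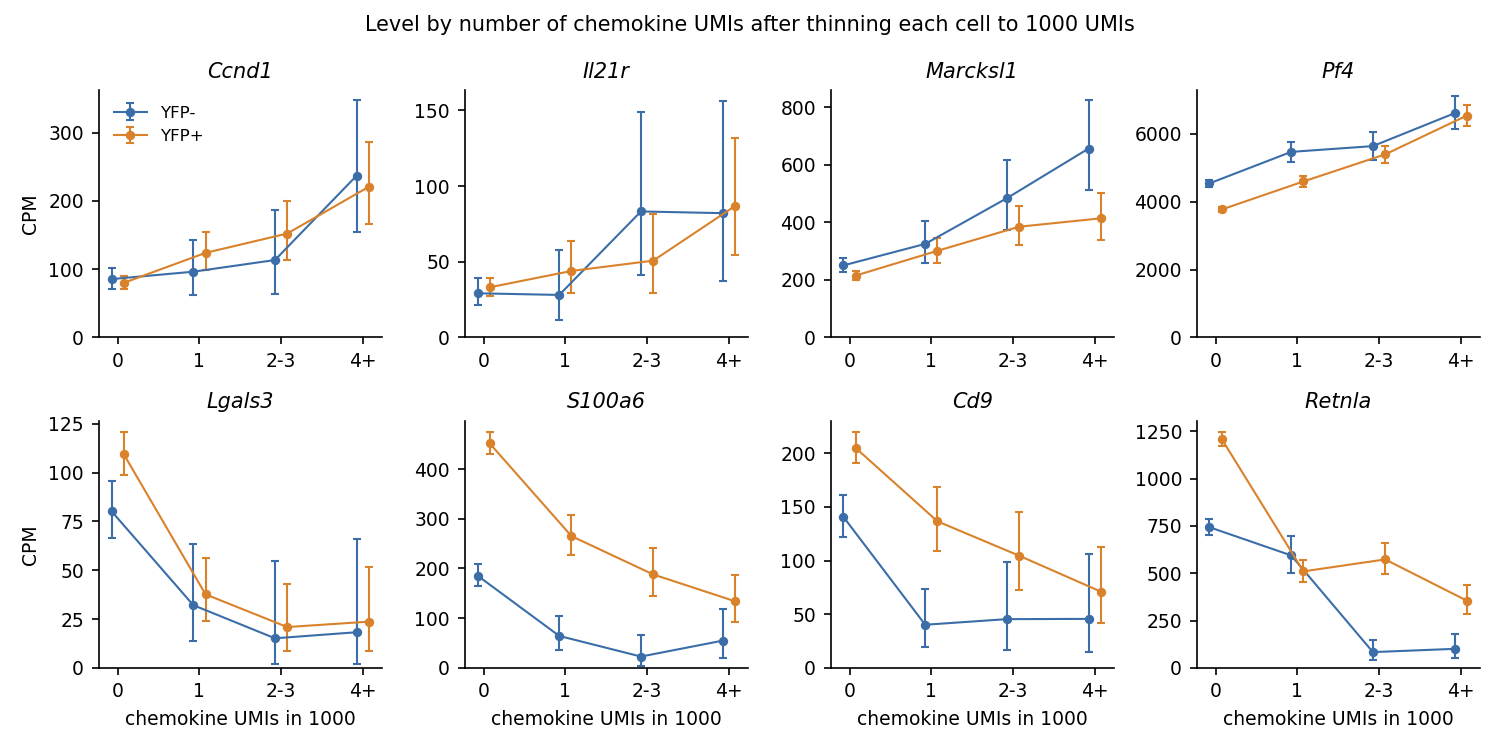
Level in CPM (y axis) of 8 genes in cells classed by chemokine UMIs after thinning each cell to 1000 UMIs (x axis), with exact Poisson 95% intervals, for the YFP− and YFP+ libraries. Ccnd1, Marcksl1 and Pf4 were higher in each class than in the one before in both libraries, and S100a6, Lgals3 and Cd9 were highest in the cells with no chemokine UMI.

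Genes of perivascular and tissue-resident macrophages were mostly higher in producers. Of 20 such genes 12 passed the level filter, 9 of them were above 0 on the log2 scale in both libraries (as were 36.3% of all genes tested) and 1 was below 0, and the median log2 ratio was 0.30 in YFP− and 0.44 in YFP+ cells, beside 0.04 and 0.05 over all 2395 genes. None reached 1.5-fold in both libraries, although *Mrc1* did in YFP+ and *Lyve1* in YFP− cells. *Mrc1*, the mannose receptor, was at 1169.9 and 1273 CPM in producers against 923 and 769.7 CPM in comparison cells. *Lyve1*, a hyaluronan receptor, was at 454 and 314 against 279 and 215 CPM in producers and comparison cells. *F13a1*, coagulation factor XIII, was at 1363 and 1337 against 1027 and 930.0 CPM. *Mgl2*, a lectin of the same class of macrophages, was at 1215 and 1447 against 961 and 1004 CPM. At equal depth a *Lyve1* UMI was held by 32.4% of producers and 19.2% of comparison cells in the YFP− library and by 24.8% and 16.5% in the YFP+ library.

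Genes of antigen presentation and the 3 genes of monocyte-like cells that passed the level filter lay on the other side. All 6 MHC class II genes at the level were below 0 in both libraries (as were 24.7% of all genes tested), with a median log2 ratio of -0.27 in YFP− and -0.22 in YFP+ cells. *Cd74*, the invariant chain, was at 19755 and 26201 CPM in producers against 23159.6 and 31062 CPM in comparison cells. *H2-Ab1* was at 5319.8 and 7545 against 7016 and 9026 CPM. Of 12 genes of monocyte-like cells 3 passed the filter and all 3 were below 0, with a median of -0.59 in YFP− and -0.58 in YFP+ cells. *S100a6* alone was 2-fold lower, beside 0.209% of all genes tested, so 1 member past this limit says little of the list. *S100a4*, which did not pass the filter, was at 17.2 and 42.9 against 58.7 and 159 CPM and *Crip1* at 1631 and 1661 against 1891 and 2489 CPM. In each library 6 of the 12 genes had no UMI in producers. The monocyte genes *Ly6c2*, *Plac8* and *Chil3* had none in the producers of either library, which allows up to 10.3 and 5.60 CPM (3 counts). At this depth a scarce gene and an absent one look alike, so no difference from comparison cells is read from these genes.

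Of the chemokines outside the rule that passed the level filter, *Pf4* had the largest ratio in both libraries. It was at 6228 and 5921 CPM in producers against 4259 and 3519.7 CPM in comparison cells, with a log2 ratio of 0.55 (95% interval 0.47 to 0.63) in YFP− cells and 0.75 (0.69 to 0.81) in YFP+ cells, and at equal depth a UMI was held by 98.0% of producers and 91.7% of comparison cells in the YFP− library and by 99.2% and 85.9% in the YFP+ library. *Cxcl16* was at 209.9 and 140.0 against 150 and 146 CPM in producers and comparison cells. Other CC ligands made by these cells differed little, with *Ccl6* at 1301 and 1083 against 1249 and 1158 CPM, *Ccl9* at 612 and 589.9 against 679 and 695 CPM and *Ccl24* at 272 and 194 against 288 and 179 CPM. Among chemokine receptors, *Cx3cr1* was at 330.3 and 317 against 260.3 and 341 CPM, without a common direction in the libraries. A single YFP+ producer held all 32 *Cxcl13* UMIs seen in producers.

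Complement, interferon and microglia genes showed small shifts. The counts of their members stand beside 0.71% of all genes tested 1.5-fold higher and 0.668% lower, and 0.0835% and 0.209% at 2-fold, so 1 or no member past these limits says little of a list. Of 10 complement genes 7 passed the filter, with a median log2 ratio of 0.08 in YFP− and 0.10 in YFP+ cells and *Cfp* as the only member past 1.5-fold. Of 18 interferon-stimulated genes 6 passed it, with a median of 0.26 in YFP− and 0.19 in YFP+ cells and none past 1.5-fold. Over 8 induced interferon genes, among them *Isg15* and *Ifit3*, YFP+ producers were at 217 CPM against 74.2 CPM, but 40 of the 116 UMIs were in 1 of 31 cells and the level without it was 143 CPM. YFP− producers were at 44.7 CPM against 62.7 CPM for the same genes. Of 21 genes of activated microglia 14 passed the filter, with a median of -0.12 in YFP− and 0.09 in YFP+ cells and 1 past 2-fold, *Lgals3* (lower), which passed the filter through the comparison cells. *Apoe* was at 26117 and 24446 against 26718 and 20777 CPM and *Trem2*, a lipid-sensing receptor, at 231 and 228 against 340.4 and 391 CPM. The 4 genes of homeostatic microglia at the level had a median of -0.23 in YFP− and -0.24 in YFP+ cells.

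Iron, lipid and oxidative stress genes had a median log2 ratio of -0.26 in YFP− and -0.13 in YFP+ cells over 11 genes, with *Mt2* as the 1 gene past 1.5-fold (lower, beside 0.668% of all genes), which in YFP− cells passed the filter through the comparison cells. Pattern recognition and cytokine receptors had a median of -0.10 in YFP− and -0.01 in YFP+ cells over 11 genes. Of 12 cell-cycle genes 3 passed the filter, and their median was -0.11 in YFP− and -0.13 in YFP+ cells. The proliferation marker *Mki67* was at 0 and 3.73 CPM in producers against 12.7 and 16.7 CPM in comparison cells. *Mki67* was thus not higher in producers in either library, unlike *Ccnd1*.

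Early response genes are switched on within minutes of a stimulus and also by tissue dissociation. In producers their members went in different directions. Of 10 AP-1 genes 7 passed the filter, 1 of them above and 3 below 0 in both libraries (as were 36.3% and 24.7% of all genes tested), with a median log2 ratio of -0.15 in YFP− and -0.04 in YFP+ cells. *Fos* was at 1184 and 1566 CPM in producers against 1434 and 1606 CPM in comparison cells and *Jun* at 888 and 1267 against 919.7 and 1013 CPM. At equal depth a *Jun* UMI was held by 54.9% of producers and 37.4% of comparison cells in the YFP− library and by 51.2% and 41.3% in the YFP+ library, and since its level in CPM was not higher in YFP− producers no order is read from that share. An *Egr1* UMI was held by 37.3% of producers and 31.8% of comparison cells in the YFP− library and by 44.4% and 33.0% in the YFP+ library. The *Egr1* intervals overlap in the YFP− library. For *Fos* the shares were 45.1% and 46.4% in YFP− and 50% and 49.2% in YFP+ cells. Those of *Junb* were 25.5% and 32.3%, then 39.2% and 32.4%. *Klf2* was lower in producers in both, with 10.8% and 22.4%, then 16% and 24.9%. The shares of early response genes thus had no common direction. Other early response genes had a median of -0.18 in YFP− and 0.15 in YFP+ cells over 8 genes, with *Klf2* as the 1 past 1.5-fold (lower, beside 0.668% of all genes). MAPK feedback genes had a median of -0.27 in YFP− and -0.05 in YFP+ cells over 5 genes, and heat-shock genes one of 0.22 in YFP− and -0.17 in YFP+ cells over 8. Of 17 targets and feedback genes of NF-kB only 2 passed the filter, and *Nfkbia* was at 209.9 and 301 against 233 and 335 CPM. The limit of 2 inflammatory UMIs was set on the producers and not on the comparison cells. With the same limit set on the comparison cells, the median log2 ratio was 0.00075 and 0.30 for AP-1 genes and -0.0068 and 0.32 for the other early response genes. With no such limit on either, it was 0.50 and 0.67 for AP-1 genes and 0.34 and 0.68 for the other early response genes. MAPK feedback genes, at 0.21 and 0.22, and heat-shock genes, at 0.41 and 0.58, were then also above 0 in both libraries.

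The inflammatory cytokine *Tnf*, which was not part of the rule, was higher in producers. It was at 37.9 and 44.8 CPM in producers against 6.35 and 14.7 CPM in comparison cells, from 11 and 24 UMIs in 9 and 19 producers, with a log2 ratio of 2.40 (95% interval 1.05 to 3.71) in YFP− cells and 1.54 (0.81 to 2.24) in YFP+ cells. At equal depth a *Tnf* UMI was held by 3.92% of producers and 0.564% of comparison cells in the YFP− library and by 4.40% and 1.35% in the YFP+ library. Its mean was under the level filter. *Il6*, *Il12b* and *Lif* were at 0 in the producers of both libraries. The 4 genes limited by the rule were at 0 and 1.87 CPM for *Il1b*, 24.1 and 46.7 CPM for *Cxcl2*, 65.4 and 89.6 CPM for *Ccl3* and 41.3 and 48.5 CPM for *Ccl4*.

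The cells excluded for 3 or more inflammatory UMIs held more RNA of many early response and stress genes than producers did. These cells were chosen by 4 inflammatory genes and are fewer, so their levels have wider counting error. They numbered 29 and 101, with a median of 3581 and 2592 UMIs, and held *Ccl12* at 1714 and 2214 CPM, *Ccl2* at 1009 and 1751 CPM and *Ccl7* at 519 and 847 CPM. *Ccl2* and *Ccl7* were thus higher and *Ccl12* lower than in producers. Of 2287 genes, 34 were at least 2-fold higher in the excluded cells than in producers in both libraries (1.49%) and 3 were lower (0.131%), namely *Sra1*, *Smim7* and *Polr2a*. Some of the 34, among them *Phlda1* (20.6 and 46.7 CPM), *Gadd45b* (3.44 and 20.5 CPM) and *Tnf*, lay under 50 CPM in the producers of both libraries. They passed the level filter through the excluded cells. The 3 lower genes lay under 50 CPM in the excluded cells and passed it through producers. Such genes had to differ to be counted, so both counts are a description only. Past 2-fold were 5 of the 7 AP-1 genes that passed the level filter (*Atf3*, *Fos*, *Fosb*, *Jun* and *Junb*), 6 of 10 other early response genes, 4 of 5 NF-kB targets and feedback genes (*Ier3*, *Nfkbia*, *Nfkbid* and *Nfkbiz*) and 4 of 10 heat-shock genes (*Dnajb1*, *Hsp90aa1*, *Hspa1a* and *Hspa1b*). Of these members, the early response genes *Gadd45b* and *Egr2*, and *Ier3*, *Nfkbid* and *Hspa1b*, lay under 50 CPM in YFP− producers. They passed the filter there through the excluded cells, so the counts of their lists were set in part by the filter. The median log2 ratio in YFP− and YFP+ cells was 1.85 and 1.09 for AP-1 genes, 1.30 and 1.09 for other early response genes, 1.82 and 1.74 for NF-kB genes and 0.92 and 1.12 for heat-shock genes, beside -0.03 and -0.04 over all genes tested. The medians of other early response, NF-kB and heat-shock genes include members that passed the filter through the excluded cells, so they are a description only.

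*Fos* was at 4437 and 3712 CPM in the excluded cells against 1184 and 1566 CPM in producers. *Nfkbia*, the inhibitor induced by NF-kB, was at 744 and 1606 CPM in the excluded cells against 209.9 and 301 CPM in producers. *Hspa1a* was at 1880.5 and 2721 CPM in the excluded cells against 220.2 and 538 CPM in producers. *Atf3*, a stress-induced transcription factor, was at 274 and 673 CPM in the excluded cells against 61.9 and 105 CPM in producers. *Cd14*, the co-receptor for bacterial lipopolysaccharide, was at 989 and 1241 CPM in the excluded cells against 334 and 479.7 CPM in producers. *Tnf* was at 255 and 112 CPM in the excluded cells against 37.9 and 44.8 CPM in producers. Some genes that set producers apart from comparison cells did so less from the excluded cells. There *Ccnd1* was at 147 and 174 CPM, *S100a6* at 49.0 and 195 CPM and *Ccr2* at 58.8 and 185 CPM. The intervals of their log2 ratios to producers span 0 in both libraries. *Il21r* was at 49.0 and 21.7 CPM in the excluded cells against 92.9 and 74.7 CPM in producers. Over all cells at equal depth, a UMI of any of the 4 inflammatory genes was seen in 33.9% and 47.1% of cells with *Ccl2*, against 16.2% and 19.5% of cells without it. For *Ccl12* the same shares were 21.5% and 26.8%, against 16.4% and 21.1%.

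**Figure D5:**
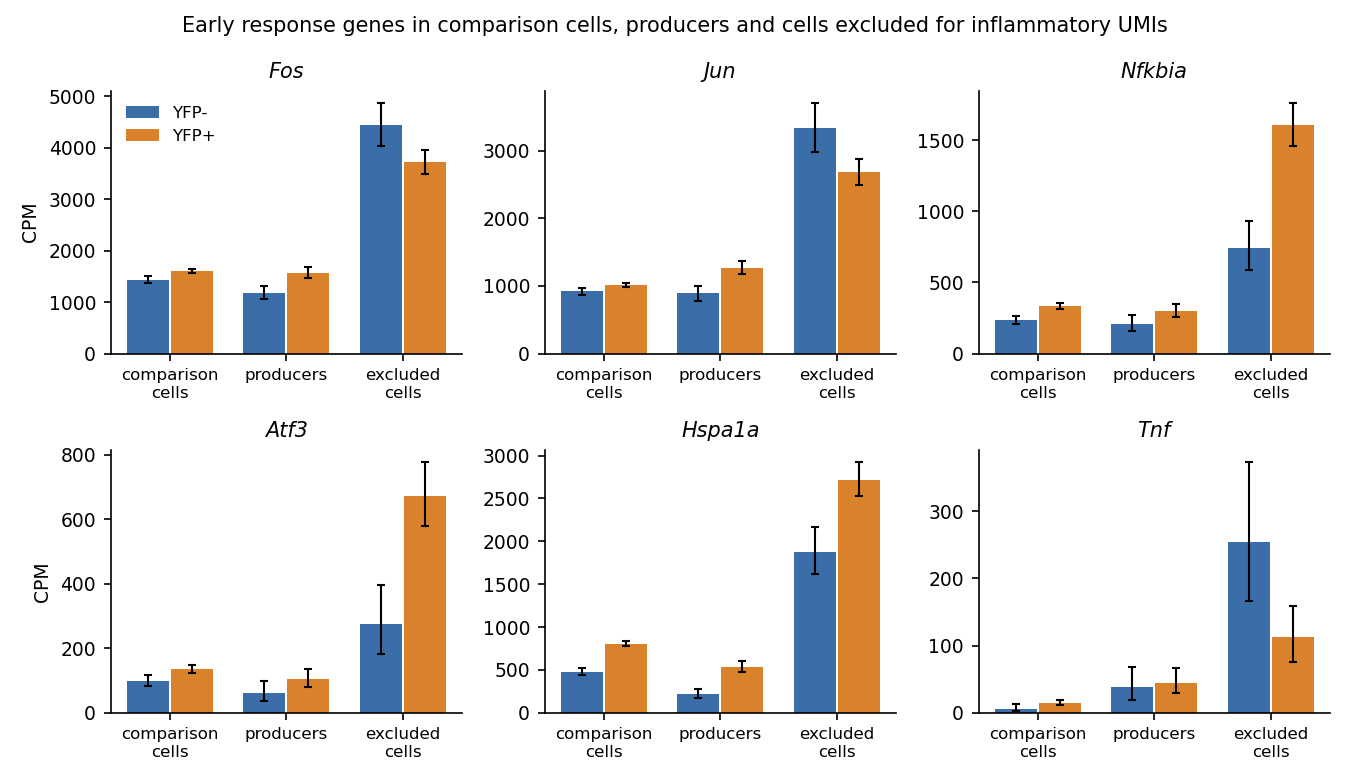
Level in CPM (y axis) of 6 early response and stress genes in comparison cells, producers and the cells excluded for 3 or more inflammatory UMIs (x axis), with exact Poisson 95% intervals, for the YFP− and YFP+ libraries. For every gene and library shown the excluded cells were highest, with Fos at 4437 and 3712 CPM against 1184 and 1566 CPM in producers. The 6 genes were picked from those at least 2-fold higher in the excluded cells than in producers in both libraries. The order of these groups thus follows from the choice of genes.

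Few genes separated the producers with a *Ccl2* or *Ccl7* UMI from those with *Ccl12* alone. The former numbered 64 and 150, with a median of 2976 and 2195.5 UMIs, and the latter 38 and 100. Of 2296 genes, 2 were at least 2-fold higher in the former in both libraries (0.0871%), *Retnla* and *Tmf1*, and 6 were lower (0.261%), *Hist1h1c*, *Tia1*, *Gpx3*, *Cnot6l*, *Tut4* and *Tnrc6b*. These calls rest on few UMIs, and without the 1 producer of each library with most UMIs of the gene none of the 8 genes was 2-fold apart in both libraries on the log2 scale with 1 CPM added, although by the plain ratio of their CPM *Tmf1* and *Tia1* were still just past it. With all producers, *Tmf1* lay under 50 CPM in those with *Ccl12* alone in both libraries. *Hist1h1c*, *Cnot6l* and *Tnrc6b* lay under it in those with *Ccl2* or *Ccl7* in both libraries, and *Tia1* and *Gpx3* in YFP+ cells. Such genes passed the level filter through the other group and had to differ to be counted, so both counts are a description only. *Retnla* was at 458 and 393 CPM against 122 and 143 CPM. The YFP− producer with 69 of its 100 UMIs and the YFP+ producer with 43 of 160 both held *Ccl2* or *Ccl7*, and without them *Retnla* was at 100.5 and 266 CPM in the former against 122 and 143 CPM in the latter, a log2 ratio of -0.28 in YFP− and 0.89 in YFP+ cells, so its direction turned in the YFP− library. *Gpx3*, a secreted glutathione peroxidase, was at 98.9 and 48.0 CPM against 223 and 188 CPM, and without the top cell its log2 ratio was -0.91 and -1.80. *Ccnd1* was at 224 and 195 CPM against 193 and 203 CPM, with no common direction in the libraries.

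By their other genes, producers did not form a group apart, although in the YFP+ library they lay near each other more often than comparison cells lay near them. Producers made up 11.4% of YFP− and 8.71% of YFP+ cells. When the 20 nearest neighbours of each cell were taken within its library on 20 principal components, with the 7 genes of the rule left out, 14.3% of the neighbours of YFP− producers were producers, against 12.8% of the neighbours of comparison cells. In YFP+ cells the shares were 11.7% and 7.13%. With cells thinned to 1000 UMIs they were 12.7% and 13.6% in YFP− cells and 11.0% and 7.78% in YFP+ cells. No producer had mostly producers as neighbours, and with all UMIs the highest share was 30% in the YFP− and 45% in the YFP+ library.

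YFP+ and YFP− producers were compared last. Of 2695 genes, 29 were at least 2-fold higher in YFP+ producers (1.08%) and 113 were lower (4.19%), of which 76 were pseudogenes. Without pseudogenes, 29 of 2574 genes were higher (1.13%) and 37 lower (1.44%). The 5 genes with the highest ratio were *Txlna*, *Ing2*, *S100a6*, *Hspa1b* and *Ccr2*. *S100a6* was at 159 CPM in YFP+ producers and 55.1 CPM in YFP− producers, a log2 ratio of 1.51 (0.74 to 2.36), and its log2 ratio between the comparison cells of the libraries was 1.10. *Ccr2* was at 175 CPM in YFP+ producers and 61.9 CPM in YFP− producers, a log2 ratio of 1.49 (0.76 to 2.29), beside 0.86 in comparison cells. *Hspa1b*, a heat-shock gene, was at 98.9 CPM in YFP+ producers and 34.4 CPM in YFP− producers, a log2 ratio of 1.5 (0.53 to 2.60), beside 1.25 in comparison cells. *Txlna*, a gene of vesicle traffic, was at 95.2 CPM in YFP+ producers and 31.0 CPM in YFP− producers, from 9 UMIs in the latter. Its log2 ratio was 1.59 (0.58 to 2.75), beside -0.13 in comparison cells. For *Ing2*, at 27.5 CPM from 8 UMIs in YFP− producers, the log2 ratio was 1.51 in producers and -0.082 in comparison cells. *Txlna*, *Ing2* and *Hspa1b* lay under 50 CPM in YFP− producers and passed the level filter through YFP+ producers. All 5 genes were picked for their ratio in producers, so a smaller ratio in comparison cells follows in part from the choice and nothing is read from it.

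The 5 lowest ratios were all those of pseudogenes, *Gm15590*, *Gm7600*, *Rpl28-ps1*, *Gm8292* and *Gm6977*. These lay under 50 CPM in YFP+ producers and passed the level filter through YFP− producers. Among the genes lower in YFP+ producers that are not pseudogenes, mt-Atp8, a mitochondrial gene of ATP synthase, was at 243 CPM in YFP+ producers and 633 CPM in YFP− producers, a log2 ratio of -1.38 (-1.71 to -1.05), and its log2 ratio between comparison cells was -1.36. Each group is 1 library and their depths differ, so origin and library cannot be told apart in these ratios.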

How the data were processed

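Single cells of 2 libraries (YFP− and YFP+, 1 per group, from 19 pooled mice) were analysed. The authors deposited raw UMI counts per gene and barcode, unfiltered and not normalized, made from a 10× Chromium v2 library. The submitters' processing notes name Cell Ranger 3.0.2, Seurat 2.2.0 and GRCm38, while the study's methods name another cellranger version. The annotation release is not given in the sources used here, and 99.8% of the gene identifiers occur in GENCODE M21.

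Matrices were summed in Python 3.11.15 (pandas 2.3.3, numpy 2.4.6), and intervals came from scipy 1.17.1. Nearest neighbours used scikit-learn 1.9.0, with 2000 variable genes. Figures were drawn with matplotlib 3.10.9. Cells needed 1000 UMIs and 200 genes. Scrublet (scanpy 1.11.5, anndata 0.12.19) marked 2 YFP− and 0 YFP+ cells and so did not work, and no cell was removed as a doublet.

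Expression levels are CPM of summed counts with exact Poisson 95% intervals, shares have exact binomial intervals, and intervals of log2 ratios (1 CPM added) are conditional on the summed count. The 3-count floor is 10.3 and 5.60 CPM in YFP− and YFP+ producers and 2.38 and 0.834 CPM in comparison cells. Gene counts used a mean of at least 50 CPM in each library, a 2-fold ratio in both and no gene of the rule. A few genes are not reported here and were left out of the counts of genes between groups of cells. Genes named are those past 2-fold or 1.5-fold, members of 28 gene and marker lists, and the 5 highest and lowest ratios between libraries. The members and lists were chosen with earlier results of these data known. The counting of genes was tested on simulated data. Those counts were drawn for each group of cells as a whole, without spread between cells and without a choice of cells by their counts. The test thus does not cover genes whose UMIs lie in few cells. Alternatives varied depth, membership, filters, scaling and the comparison cells.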

Additional observations from a re-analysis of the deposited data

Results flagged for a closer look

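*Lyz2*, the lysozyme gene of macrophages, had a log2 ratio of producers over comparison cells of 0.06 for YFP− and -0.18 for YFP+ cells, with counting intervals on opposite sides of 0. *Ier2*, an early response gene, likewise had a log2 ratio of -0.36 in YFP− and 0.18 in YFP+ cells. Without replicates the difference between the libraries was not tested.

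Chemokine transcripts were also seen outside the cells analysed. Of 150 YFP− and 1184 YFP+ barcodes with at least 500 and fewer than 1000 UMIs, 6 and 51 held at least 4 UMIs of the 3 chemokines.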

How the results depend on the processing

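The gene counts rest on few transcripts per cell, so a gene with a level near the floor could not be compared, and 1 library per group leaves the spread between animals unmeasured. No paired analysis was possible because the libraries are the study's YFP− and YFP+ groups, with 1 each, and not replicates of one group. The ratios of producers to comparison cells were taken within each library and are given for both, with no test over them. Of 5430 values of single genes under the alternatives, 5186 moved by less than their counting interval, 239 moved further and 5 were marked as reversed. Some alternatives could change little. Leaving out the cells marked by Scrublet removed 2 YFP− cells and no producer, and the limit of 10% mitochondrial UMIs removed no producer. The number of values that stayed is thus a description and no measure of stability. The mark of a reversal does not take in every change of sign. Of 432 medians of lists 14 moved, of 18 shares 8, and of 72 gene counts 25. The log2 ratio of *Ccnd1* stayed between 1.39 and 1.82 in YFP− and 1.21 and 1.49 in YFP+ cells over these alternatives, and that of *S100a6* between -2.81 and -1.54 and between -2.0 and -1.22. *S100a6* was 2-fold lower in both libraries under every alternative run.

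Membership set the share of producers. It was 5.25% and 5.12% with thinning to 1000 UMIs, 7.37% and 5.75% with at least 6 chemokine UMIs, 14.6% and 12.2% with no limit on inflammatory UMIs, and in YFP+ cells 11.2% with at least 3 chemokine UMIs and 7.35% with cells of at least 500 UMIs.

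The number of genes 2-fold higher in producers was 6 with members chosen after thinning and 1 with the median ratio set to 0. It was 1, beside 3 lower genes, with cells weighted equally, without the 5% of cells with most UMIs and without cells with 2 or more fibroblast, mural or myelin UMIs. A minimum of 20 CPM gave 6 higher and 13 lower genes, no filter 64 and 470, and a limit of 1.5-fold 17 and 16. The lower genes numbered 2 with at least 3 chemokine UMIs and 3 with no limit on inflammatory UMIs. *Capg* was not among the 2-fold lower genes after thinning, with equal weights, with at least 3 or at least 6 chemokine UMIs, with no limit on inflammatory UMIs or that limit set on comparison cells, without the 5% of cells with most UMIs, with at least 500 UMIs per cell or without marker-bearing cells, and *Cd9* was not with at least 3 chemokine UMIs, no limit on inflammatory UMIs or without marker-bearing cells. *Lgals3* was not among them after thinning, with equal weights or without the 5% of cells with most UMIs, and *Retnla* was not with comparison cells matched in depth or with at least 3 chemokine UMIs. For YFP+ over YFP− producers, 131 genes were higher and 198 lower after thinning, 216 and 357 at 20 CPM, 1266 and 1427 without a filter and 188 and 280 at 1.5-fold, and 66 were higher with at least 6 chemokine UMIs.

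After thinning, list medians were 0.30 for macrophage identity in YFP− cells, -0.068 for MHC class II in YFP− cells, and in YFP+ cells 0.21 for MAPK feedback, 0.40 for interferon-stimulated and 0.57 for perivascular genes. The perivascular median in YFP− cells was 0.42 with depth-matched comparison cells, and that of MHC class II -0.15 without the 5% of cells with most UMIs. With no limit on inflammatory UMIs, medians were 0.21 and 0.22 for MAPK feedback, 0.50 and 0.67 for AP-1 and 0.34 and 0.68 for other early response genes in YFP− and YFP+ cells, and 0.58 for heat-shock genes in YFP+ cells.

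The genes with values marked as reversed were *Hspa1a*, at 0.44 and 0.66 with no limit on inflammatory UMIs and 0.11 in YFP+ cells when that limit also held for comparison cells, *Il1rl1*, at -0.41 in YFP− cells after thinning, and *Maml2*, at -0.21 in YFP+ cells with at least 6 chemokine UMIs. Other genes changed sign without this mark. With no limit on inflammatory UMIs, members of the AP-1 list did, since its YFP− median went from -0.15 to 0.50. Fewer cells and UMIs enter after thinning, and the causes of the other shifts were not tested.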
